A study of Mus musculus with 12 samples.

Results

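The genes of the route from tryptophan to nicotinamide adenine dinucleotide (NAD) were followed in cultured mouse hepatocytes in which the liver transcription factors HNF4α and C/EBPα had been knocked down with small interfering RNA (siRNA). The 10 genes were Tdo2, Ido2, Afmid, Kmo, Kynu, Haao, Acmsd, Qprt, Nadsyn1 and Nmnat1, chosen by name as the kynurenine pathway and de novo NAD synthesis genes, out of 55385 genes in the deposited tables. Primary hepatocytes were isolated from 3 mice, and cells of each mouse received control siRNA (siCon), siRNA to Hnf4a (siHnf4a), siRNA to Cebpa (siCebpa) or both targeting siRNAs (double knockdown) for 48 h. This gave 4 groups of 3 libraries, with 1 library per mouse in each group. The culture medium of all groups contained dexamethasone, a synthetic glucocorticoid, at 100 nM, along with 10% serum, 5% insulin-transferrin-selenium and glutamine at 2 mM. The labels state neither the strain, age or sex of the mice nor the sequence or dose of an siRNA.

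Liver is the main site of tryptophan breakdown. TDO2 (or the related IDO1 and IDO2) opens the indole ring to N-formylkynurenine, the formamidase AFMID releases kynurenine, KMO hydroxylates it, KYNU cuts it to 3-hydroxyanthranilate, and HAAO opens that ring. The unstable product is either decarboxylated by ACMSD towards glutarate and full oxidation, or closes by itself to quinolinate, which QPRT turns into nicotinic acid mononucleotide. NMNAT1, the nuclear adenylyltransferase, and NADSYN1, the glutamine-dependent NAD synthetase, complete NAD. Tdo2 is a classical glucocorticoid-induced gene of hepatocytes.

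The libraries held between 22453445 and 25008195 estimated counts each. Hnf4a itself fell to 23.6% of the siCon level in siHnf4a (adjusted p = 0.000953 by edgeR's quasi-likelihood test) and to 15.6% in the double knockdown. Cebpa fell to 15.6% of siCon in siCebpa but to 48.9% in the double knockdown, so the double knockdown had 3.14 times the Cebpa level of siCebpa (adjusted p = 5.1e-05). The 8 hepatocyte markers summed to between 4544 and 15530 CPM (counts scaled to library size) in every library, and 5 lymphocyte markers to at most 1.02 CPM. The 13 Kupffer cell and macrophage markers summed to between 59.1 and 422 CPM, of which Cd68 was the main part, and mouse 1 was highest in every group. Because these were bulk cultures, fewer cells of a type and less RNA per cell cannot be told apart.

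Knockdown of Hnf4a was followed by called changes in 4 of the 10 genes. Tdo2, the entry enzyme, rose 3.83-fold, while Kmo, the hydroxylase of kynurenine, fell to 16.3% of its control level. Qprt fell to 56.7% and Nadsyn1 to 74.9%. In siHnf4a against siCon, 1 member thus rose and 3 fell, where 14.5% of all 15090 tested genes were called in either direction (7.24% higher and 7.29% lower). A gene counts as called when its adjusted p is under 0.05. The median log2 fold change of the members was -0.43, beside 0.000 for all tested genes.

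**Figure D1:**
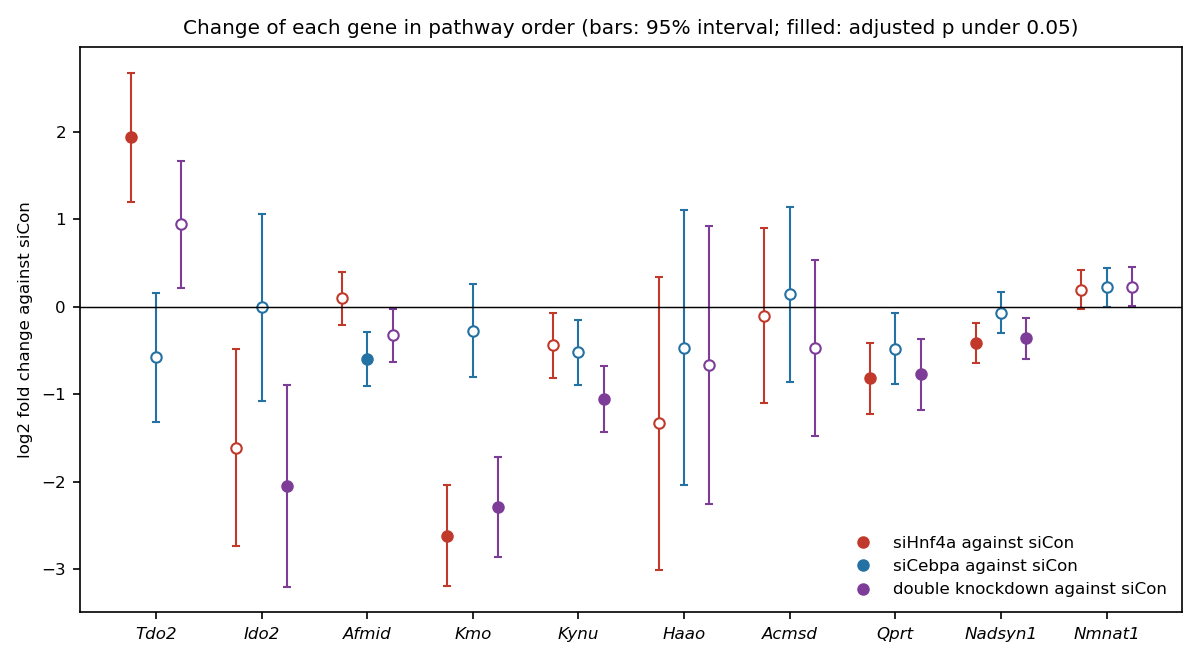
Log2 fold change (vertical axis) of each of the 10 members, in pathway order, against siCon, with its 95% confidence interval; colours are siHnf4a, siCebpa and the double knockdown. Filled points passed an adjusted p of 0.05; Tdo2 lay at 1.94 and Kmo at -2.62 in siHnf4a, and 5 members were called lower in the double knockdown.

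In the double knockdown, Kmo fell to 20.4% of siCon, Ido2 to 24.1%, Kynu to 48.0%, Qprt to 58.4% and Nadsyn1 to 77.8%. No member was called higher, so 5 of 10 were called, where 14% of all tested genes were (6.9% higher and 7.13% lower). With mouse as a block in the fit, Tdo2 was also called higher, at a log2 fold change of 0.89 ± 0.30 (standard error, SE; adjusted p = 0.0469), against 0.94 ± 0.33 and an adjusted p of 0.0832 without the block, and the share over all genes was 29.5%. Under the block this Tdo2 call remained in 5 of 12 settings that left out 1 library (log2 0.57 to 1.32, adjusted p up to 0.174), and was lost without mouse 1 or 2 of siCon, mouse 1 of siHnf4a, mouse 3 of siCebpa or any double knockdown library. The members' median log2 fold change was -0.57, beside 0.000 for all tested genes.

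In siCebpa fewer members were called than in siHnf4a, as were fewer of all tested genes. The log2 fold change was below 0 for 8 of the 10 members, against 7 in siHnf4a. Afmid, the formamidase, fell to 66.1% of siCon, and was the only one of the 10 called, where 4.67% of all tested genes were (2.94% higher and 1.72% lower). With mouse as a block, 3 members were called lower, because Kynu (adjusted p = 0.016) and Qprt (adjusted p = 0.0218) joined Afmid; the same block raised the share over all genes to 16.8%. The block also raised the count in siHnf4a from 4 to 6 members, by adding Ido2 and Kynu as lower, while the share over all genes rose to 30%. The members' median in siCebpa was -0.37 on the log2 scale, beside 0.001 for all tested genes.

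All 3 of these comparisons share the siCon libraries. The ranges of CPM did not overlap with siCon for 7 of the 10 members in siHnf4a, where 33.7% of tested genes did not overlap either. In siCebpa this held for 3 members, where the share over all genes was 23.7%, and in the double knockdown for 8 members, where it was 32.8%. All 10 members passed the filter on low counts. Haao was just over it, at between 0.42 and 0.95 CPM in siCon, where the filter asks for about 0.42 CPM in 3 libraries.

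**Figure D2:**
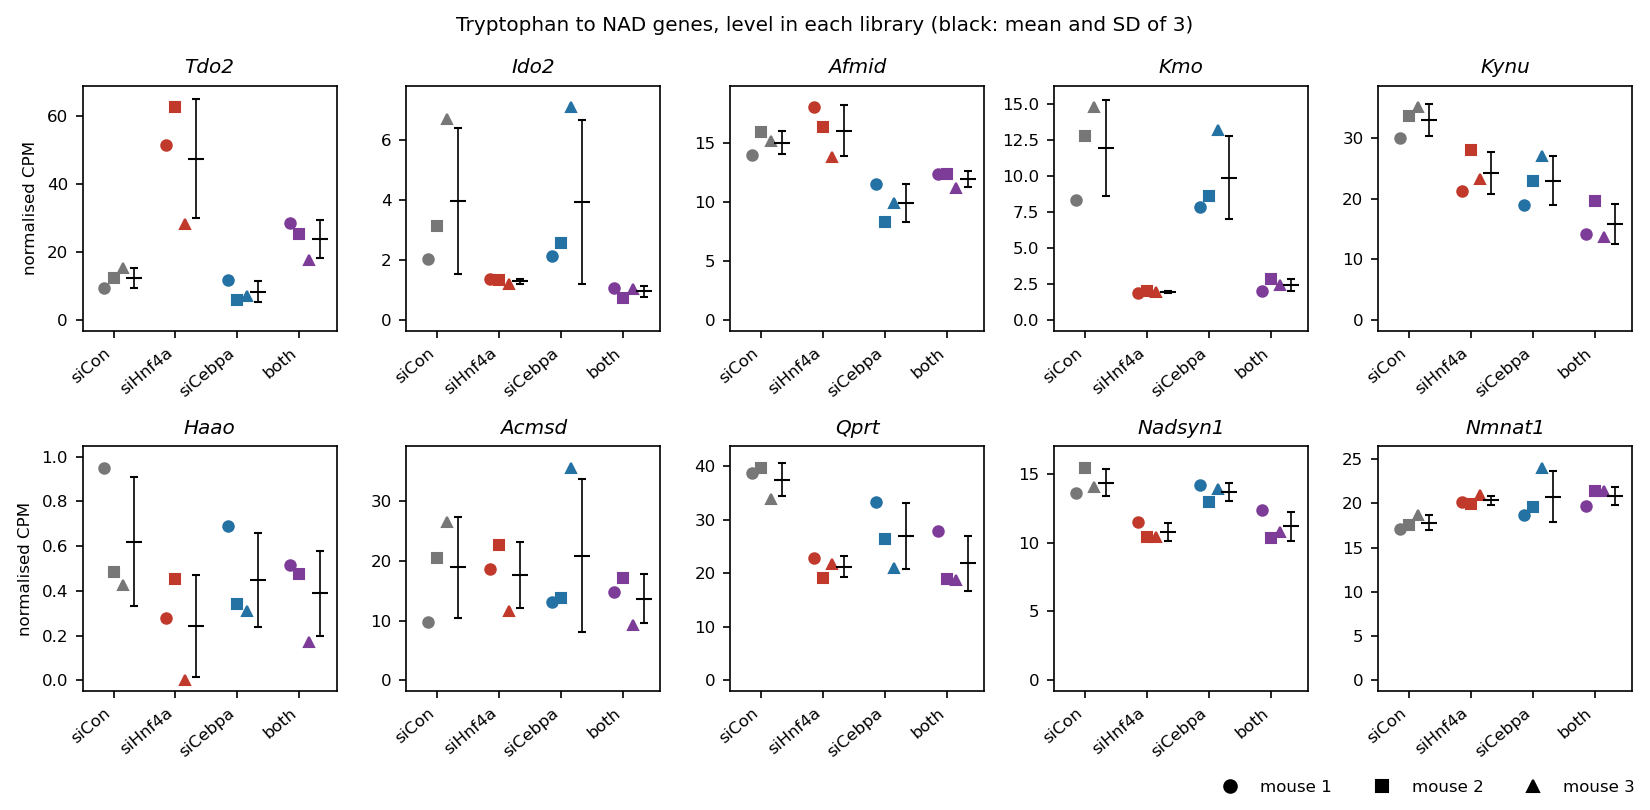
Normalised CPM (linear axis with 0 shown) of each member in every library, by siRNA group; coloured points are the 3 mice, and the black line with bars beside them is the group mean with its SD. Kmo is low in all 6 libraries that received Hnf4a siRNA, Tdo2 is highest in siHnf4a, and Acmsd shows mouse 3 highest in siCon and siCebpa and lowest in siHnf4a and the double knockdown.

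The windows before the start sites of Tdo2 and Kmo are printed because these genes made the largest called rise and the largest called fall of the pathway after Hnf4a knockdown. They are the 250 bases before the RefSeq start on GRCm38.p6, 5′ to 3′ on the gene's own strand: chr3:81975729-81975978 on the minus strand for Tdo2 and chr1:175631943-175632192 on the plus strand for Kmo. Capitals mark CAAAG, the shortened core of the HNF4 motif, and ATTGC, a C/EBP half-site, each on either strand, so that CTTTG and GCAAT are the same letters read from the other strand.
Tdo2: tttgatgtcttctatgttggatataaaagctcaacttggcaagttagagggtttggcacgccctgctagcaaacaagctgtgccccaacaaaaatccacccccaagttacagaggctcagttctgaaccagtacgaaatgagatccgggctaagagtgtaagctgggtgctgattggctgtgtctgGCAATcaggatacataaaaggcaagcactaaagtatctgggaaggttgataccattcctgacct
Kmo: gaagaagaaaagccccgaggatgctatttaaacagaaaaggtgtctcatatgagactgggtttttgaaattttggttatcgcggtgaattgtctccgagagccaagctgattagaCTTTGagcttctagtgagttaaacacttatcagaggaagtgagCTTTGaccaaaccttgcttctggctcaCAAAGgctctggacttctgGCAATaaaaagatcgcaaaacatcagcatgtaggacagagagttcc
The Kmo window holds 3 matches to CAAAG and 1 to ATTGC, and the Tdo2 window holds 1 to ATTGC and 0 to CAAAG.

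The search covered 300 bases per gene, from 250 before to 50 after the start, for the 8 members with an entry in the RefSeq table. CAAAG was found in 5 of them, where 53.9% of all 32851 promoters of the same length hold it. ATTGC was found in 3, where 26.4% of all promoters hold it. The longer HNF4 motif CAAAGTCCA, which contains CAAAG, was found in none (0.475% of all promoters), and neither was the C/EBP palindrome TTGCGCAA (0.183%). A match describes the letters of the window alone. The starts used lie inside the GENCODE spans of both genes, Tdo2 and Kmo, whose annotation also lists other transcripts.

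Tdo2 (ENSMUSG00000028011.16) lies on GRCm38 chromosome 3, from 81957090 to 81976202 on the minus strand, and encodes tryptophan 2,3-dioxygenase. Its CPM in mouse 1, mouse 2 and mouse 3 was 9.39, 12.3 and 15.4 in siCon, 51.4, 62.5 and 28.3 in siHnf4a, 11.8, 6.0 and 7.03 in siCebpa, and 28.5, 25.2 and 17.7 in the double knockdown. Every siHnf4a and double knockdown library stood above every siCon library, and mouse 3 was the lowest of the 3 mice in both of those groups. The log2 fold change in siHnf4a was 1.94 ± 0.34 (SE, n = 3 per group, edgeR adjusted p = 0.00377), and leaving out any 1 library kept it between 1.69 and 2.21. Per mouse, with 0.5 CPM added, the log2 rise was 2.39, 2.30 and 0.86. In siCebpa the log2 value was -0.58 ± 0.34 (edgeR adjusted p = 0.373), with mouse 1 above its control and the other two mice below.

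Adding Cebpa siRNA to Hnf4a siRNA lowered the Tdo2 value in each mouse, by log2 values of -0.84, -1.30 and -0.66. The fitted difference of the double knockdown from siHnf4a was -0.995 ± 0.33 (95% interval -1.71 to -0.28, unadjusted p = 0.0109), which did not pass the adjusted threshold in edgeR. Tdo2 still stood above siCebpa in the double knockdown, at a log2 difference of 1.52 ± 0.34 (edgeR adjusted p = 0.0145). That call was lost without the siCebpa library of mouse 2 (1.34, adjusted p = 0.0586 by edgeR) or of mouse 3 (1.41, adjusted p = 0.0609).

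Ido2 (ENSMUSG00000031549.16; chromosome 8, 24531892 to 24576333, minus strand) encodes a second, low-activity dioxygenase for the same step. It was far scarcer than Tdo2, with CPM of 2.02, 3.14 and 6.67 in siCon and 2.12, 2.57 and 7.08 in siCebpa in mouse 1, 2 and 3. With Hnf4a siRNA the values were 1.35, 1.32 and 1.19, and with both siRNAs 1.07, 0.74 and 1.03. The 6 libraries without Hnf4a siRNA varied 3.30-fold in siCon and 3.34-fold in siCebpa between their highest and lowest mouse, while the spread was 1.13-fold in siHnf4a and 1.46-fold in the double knockdown. All 6 libraries with Hnf4a siRNA stood below all 6 without it. Of the 13 Kupffer cell and macrophage markers, 10 were highest in mouse 3 and 3 in mouse 1 in siCon, and 7 in mouse 3, 4 in mouse 1 and 1 in mouse 2 in siCebpa, where 1 was at 0. Their sum was highest in mouse 1 through Cd68 and, without Cd68, was 14.4, 6.12 and 21 CPM in siCon and 4.53, 4.16 and 9.20 CPM in siCebpa for mouse 1, 2 and 3. Their part in the Ido2 values was not tested.

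The log2 fold change of Ido2 was -1.61 ± 0.51 in siHnf4a, with an adjusted p of 0.0587 in edgeR and 0.0134 with mouse as a block. In the double knockdown it was -2.05 ± 0.52 (edgeR adjusted p = 0.0247) and held with the block (0.00395). Without the block, the call was lost when the siCon library of mouse 3 was left out (-1.44, adjusted p = 0.103) and when the double knockdown library of mouse 1 (-2.16, 0.0571), mouse 2 (-1.89, 0.0927) or mouse 3 (-2.11, 0.0669) was. Against siCebpa the double knockdown was lower by a log2 value of -2.04 ± 0.52 (edgeR adjusted p = 0.0284). This too was lost without the siCebpa library of mouse 3 (-1.30, adjusted p = 0.108) or the double knockdown library of mouse 1 (-2.13, 0.0624), mouse 2 (-1.87, 0.107) or mouse 3 (-2.08, 0.0785). Ido1, the third dioxygenase gene, was under the filter and was not tested.

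Afmid (ENSMUSG00000017718.15; chromosome 11, 117825924 to 117839908, plus strand) encodes kynurenine formamidase. Its CPM was 14.0, 15.9 and 15.1 in siCon, 18.0, 16.3 and 13.8 in siHnf4a, 11.5, 8.31 and 9.91 in siCebpa, and 12.4, 12.3 and 11.2 in the double knockdown. Both groups with Cebpa siRNA lay below siCon in every library, and siHnf4a overlapped with it. In siCebpa the log2 fold change was -0.60 ± 0.14 (edgeR adjusted p = 0.0389; 0.0101 with the block).

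The Afmid call was near the threshold. It was lost when any of 8 of the 12 libraries was left out: those of mouse 2 or mouse 3 in siCon (-0.57, adjusted p = 0.148, and -0.59, 0.137) or in siCebpa (-0.50, 0.111, and -0.60, 0.123), that of mouse 2 in siHnf4a (-0.61, 0.0694), and that of mouse 1, 2 or 3 in the double knockdown (-0.61 each, 0.0555, 0.0634 and 0.0526). With both siRNAs the value was -0.33 ± 0.14 (edgeR adjusted p = 0.146), and siHnf4a against siCebpa gave 0.69 ± 0.14 (edgeR adjusted p = 0.00807). Afmid overlaps Tk1 on the opposite strand and Gm20708 on its own strand. The strand setting of the counting is not given, and how far the transcripts share sequence was not examined. Reads from any shared sequence may have been assigned to either gene. Over the 12 libraries, Tk1 held 1639 and Gm20708 held 53.1 estimated counts. Against siCon, the log2 fold change of Tk1 was -0.585 for siCebpa, -0.507 for siHnf4a and -0.49 with both siRNAs. Tk1 was not called in edgeR (adjusted p = 0.472, 0.455 and 0.477), but was with the block (0.0174, 0.0242 and 0.0289). Afmid itself stood at 0.095 in siHnf4a. The part of Tk1 reads in the Afmid values was not tested.

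Kmo (ENSMUSG00000039783.15; chromosome 1, 175620381 to 175662116, plus strand) encodes kynurenine 3-monooxygenase of the outer mitochondrial membrane. Its CPM was 8.28, 12.7 and 14.7 in siCon and 7.86, 8.57 and 13.1 in siCebpa. With Hnf4a siRNA it was 1.87, 2.01 and 1.93, and with both siRNAs 2.03, 2.85 and 2.40. The 6 libraries with Hnf4a siRNA lay far below the 6 without, and each siHnf4a library was below every double knockdown library.

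The log2 fold change of Kmo was -2.62 ± 0.26 in siHnf4a (95% interval -3.20 to -2.04, edgeR adjusted p = 0.00017), and -2.29 ± 0.26 in the double knockdown (edgeR adjusted p = 0.000305). In siCebpa it was -0.27 ± 0.24 (95% interval -0.81 to 0.26, edgeR adjusted p = 0.586). Double knockdown against siCebpa gave -2.02 ± 0.26 (edgeR adjusted p = 0.000795). Leaving out any 1 of the 12 libraries kept Kmo called in these comparisons of an Hnf4a siRNA group with a group without it. Kmo overlaps Fh1, a mitochondrial fumarase gene on the opposite strand at a mean of 64.4 CPM, whose log2 fold change was 0.10, 0.32 and 0.05 for siHnf4a, siCebpa and both siRNAs.

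**Figure D3:**
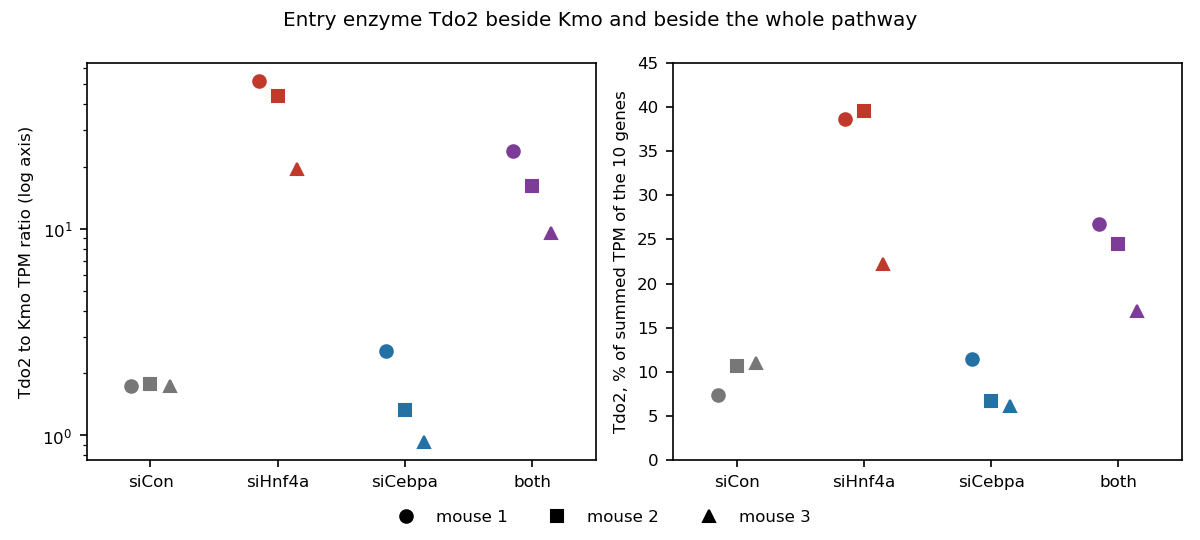
Left, the ratio of Tdo2 to Kmo TPM in each library by siRNA group, on a log axis; right, Tdo2 as a percentage of the summed TPM of the 10 genes (linear axis from 0). Points are single libraries and their shapes are the 3 mice. The 3 siCon ratios lie between 1.73 and 1.77, and all 6 libraries with Hnf4a siRNA lie at 9.57 or above.

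The ratio of Tdo2 to Kmo put the opposite changes on one scale. In TPM, the deposited unit that corrects for transcript length, it was 1.73, 1.77 and 1.73 in siCon for mouse 1, 2 and 3. It was 51.9, 43.8 and 19.4 in siHnf4a and 23.7, 16.1 and 9.57 in the double knockdown, and 2.55, 1.33 and 0.93 in siCebpa. The ratio was higher in every library with Hnf4a siRNA than in any library without, and in each mouse higher in siHnf4a than in the double knockdown. Tdo2 made up between 7.4% and 11% of the summed TPM of the 10 members in siCon, and between 22.2% and 39.6% in siHnf4a. Without Tdo2, the other 9 members summed to between 98.7 and 118.6 TPM in siCon, 79.8 and 86.9 in siHnf4a, 78.4 and 95.5 in siCebpa, and 65.5 and 78.4 in the double knockdown.

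Kynu (ENSMUSG00000026866.16; chromosome 2, 43555329 to 43682715, plus strand) encodes kynureninase, a pyridoxal phosphate enzyme. Its CPM was 30.1, 33.7 and 35.1 in siCon, 21.3, 28.1 and 23.3 in siHnf4a, 18.9, 22.9 and 27.0 in siCebpa, and 14.1, 19.6 and 13.7 in the double knockdown. Every knockdown library was below every siCon library, and the double knockdown was lowest in each mouse. The log2 fold change was -0.44 ± 0.17 in siHnf4a (edgeR adjusted p = 0.107; 0.0186 with the block), -0.52 ± 0.17 in siCebpa (0.110; 0.016 with the block) and -1.06 ± 0.17 in the double knockdown (0.00254). Leaving out any 1 library kept the double knockdown between -1.24 and -0.97 and called. The difference of the double knockdown from siHnf4a was -0.62 ± 0.17 (unadjusted p = 0.00417, adjusted p = 1.00 in edgeR), and from siCebpa -0.54 ± 0.17 (adjusted p = 0.0633 in edgeR, and 0.0103 with the block).

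Markers of hepatocytes and of other liver cells were measured beside the members. Beside the counts below, 14% of all tested genes were called in the double knockdown against siCon and 13% against siCebpa. With the block these shares were 29.5% and 27.3%. For siHnf4a against siCon the share was 14.5% (30% with the block), and for siCebpa against siCon 4.67% (16.8% with the block). Of 8 hepatocyte markers, 7 had a log2 fold change below 0 in the double knockdown (median -0.63), where Apoa1 was called lower (-1.33) and 5 were lower and 1 higher with the block. Against siCebpa, 6 of the 8 were below 0 (median -1.11), with Apoa1 (-1.40) and Ttr (-1.21) called lower, and 6 lower and 1 higher with the block. Their summed CPM spanned 4544 to 8334 over the double knockdown libraries, against 7064 to 10900 for siCon, 5774 to 11940 for siHnf4a and 7149 to 15530 for siCebpa. All 6 endothelial markers lay below 0 in the double knockdown (median -0.42), with 0 called and 3 lower with the block.

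Of the 10 tested Kupffer cell and macrophage markers, 9 had a log2 fold change below 0 in each comparison of a knockdown with siCon. The median was -1.002 for siHnf4a, -1.24 for the double knockdown and -1.215 for siCebpa. Of these markers 0 passed the test, and 3, 5 and 3 were lower with the block, in the same order. Summed marker CPM, mainly Cd68, overlapped between groups. It ran from 83.5 to 262 for siCon, 96.0 to 422 for siHnf4a and 93.3 to 355 for the double knockdown. For siCebpa it ran from 59.1 to 370. Without Cd68, the sums of mouse 1, 2 and 3 were 7.83, 3.04 and 10.3 CPM with Hnf4a siRNA alone. With both siRNAs they were 7.63, 3.72 and 5.19 CPM. These sums, and those of siCebpa given above, were all below the siCon sum of the same mouse (14.4, 6.12 and 21 CPM). The defining genes Clec4f and Vsig4 were at or below 1.57 and 1.70 CPM and Timd4 at or below 0.085 CPM in every library. Of 4 tested cholangiocyte markers, Krt19 (-2.69) and Sox9 (-1.01) fell in siHnf4a, and Krt19 (-2.94) and Sox9 (-1.58) in the double knockdown (all 4 with the block), with summed CPM from 79.0 to 269 in siCon, 50.8 to 165 in siHnf4a and 32.2 to 160 in the double knockdown. In siCebpa all 4 had a log2 fold change below 0 (median -0.912), with 0 called and 3 lower with the block. Their summed CPM in siCebpa ran from 35.0 to 125. The part of these markers in the members' values was not tested.

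Haao (ENSMUSG00000000673.9; chromosome 17, 83831156 to 83847963, minus strand) encodes 3-hydroxyanthranilate dioxygenase and was close to undetected. Its estimated counts were 24, 12 and 10 in siCon, 7, 11 and 0 in siHnf4a, 16, 8 and 7 in siCebpa, and 13, 11 and 4 in the double knockdown. The 0 of mouse 3 in siHnf4a allows up to 0.123 CPM, the level of 3 counts in that library. The groups overlapped, and the log2 fold change of -1.33 ± 0.76 in siHnf4a (95% interval -3.01 to 0.34, edgeR adjusted p = 0.283) leaves both no change and a fall of several fold within its interval.

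Acmsd (ENSMUSG00000026348.7; chromosome 1, 127729413 to 127767978, plus strand) encodes the decarboxylase that draws the intermediate away from NAD. Its CPM was 9.75, 20.5 and 26.6 in siCon, 18.6, 22.7 and 11.6 in siHnf4a, 13.2, 13.8 and 35.7 in siCebpa, and 14.8, 17.1 and 9.19 in the double knockdown. The mice moved in different directions: mouse 3 had the highest Acmsd value in siCon and siCebpa and the lowest in siHnf4a and the double knockdown. Per mouse, the log2 change with Hnf4a siRNA was 0.90 in mouse 1, 0.15 in mouse 2 and -1.16 in mouse 3 without Cebpa siRNA, and 0.16, 0.29 and -1.90 with it. The fitted log2 fold change in siHnf4a was -0.10 ± 0.45 (95% interval -1.101 to 0.90, edgeR adjusted p = 0.914). Acmsd overlaps the antisense gene 2900009J06Rik, which held 298 estimated counts over the 12 libraries.

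Qprt (ENSMUSG00000030674.5; chromosome 7, 127107114 to 127122226, minus strand) encodes quinolinate phosphoribosyltransferase, the commitment to NAD. Its CPM was 38.8, 39.8 and 34.0 in siCon, 22.9, 19.2 and 21.7 in siHnf4a, 33.3, 26.5 and 21.01 in siCebpa, and 27.9, 19.0 and 18.8 in the double knockdown. All 9 knockdown libraries were below all 3 siCon libraries. The log2 fold change was -0.82 ± 0.19 for siHnf4a (edgeR adjusted p = 0.0143), -0.48 ± 0.18 in siCebpa (0.171; 0.0218 with the block) and -0.78 ± 0.19 in the double knockdown (0.0181).

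The Qprt call in siHnf4a was lost without the mouse 2 library of siCon (-0.77, edgeR adjusted p = 0.0656) or of siHnf4a (-0.75, 0.0745). For the double knockdown it was lost without the mouse 2 library of siCon (-0.73, edgeR adjusted p = 0.0755) and without the double knockdown library of mouse 2 (-0.68, 0.0867) or mouse 3 (-0.68, 0.0805). With mouse as a block, Qprt kept both calls whichever library was left out. Its departure from additivity, the double knockdown value beyond the sum of the single knockdowns, was 0.52 ± 0.26 (95% interval -0.05 to 1.095, unadjusted p = 0.0712 in edgeR). With mouse as a block it was 0.52 ± 0.18 (95% interval 0.13 to 0.92, adjusted p = 0.137 in edgeR), and the per-mouse values were 0.49, 0.56 and 0.48.

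Nadsyn1 (ENSMUSG00000031090.14; chromosome 7, 143795584 to 143822849, minus strand) encodes NAD synthetase. Its CPM was 13.6, 15.5 and 14.1 in siCon, 11.5, 10.4 and 10.4 in siHnf4a, 14.2, 13.0 and 13.9 in siCebpa, and 12.4, 10.4 and 10.8 in the double knockdown. The 6 libraries with Hnf4a siRNA lay below the 6 without it, by a small margin. The log2 fold change was -0.42 ± 0.11 in siHnf4a (edgeR adjusted p = 0.0241) and -0.36 ± 0.11 in the double knockdown (0.0434), and -0.07 ± 0.11 in siCebpa (0.772).

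These Nadsyn1 calls were close to the threshold. In siHnf4a the call was lost without mouse 2 or mouse 3 of siCon (-0.36, edgeR adjusted p = 0.113, and -0.43, 0.0635) or of siHnf4a (-0.39, 0.102, and -0.39, 0.0852). In the double knockdown it was lost without any 1 of 10 libraries, with log2 values from -0.40 to -0.30 and edgeR adjusted p from 0.0536 to 0.171, and remained called only without the mouse 1 library of siCebpa or of the double knockdown. Nadsyn1 was also lower in siHnf4a than in siCebpa, at -0.35 ± 0.11 (edgeR adjusted p = 0.0463), but leaving out any 1 of the 12 libraries ended that call (adjusted p from 0.0554 to 0.191).

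Nmnat1 (ENSMUSG00000028992.13; chromosome 4, 149467572 to 149485202, minus strand) encodes the nuclear adenylyltransferase. Its CPM was 17.1, 17.6 and 18.7 in siCon, 20.2, 19.9 and 20.9 in siHnf4a, 18.7, 19.6 and 24.1 in siCebpa, and 19.7, 21.4 and 21.4 in the double knockdown. Each knockdown library exceeded the siCon library of its own mouse. The log2 values were 0.19 ± 0.10, 0.22 ± 0.10 and 0.23 ± 0.10 for siHnf4a, siCebpa and the double knockdown, with edgeR adjusted p of 0.243, 0.249 and 0.169, so no call was made.

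On the length-corrected scale, Qprt was the most abundant member in siCon at 29.6 ± 2.33 TPM (SD, n = 3), followed by Kynu at 21.6 and Nmnat1 at 17.7, each with a range apart from the next. Tdo2 at 12.1 ± 3.69, Acmsd at 10.8, Nadsyn1 at 10.5 and Afmid at 10.4 had overlapping ranges, and Kmo at 6.95, Ido2 at 2.32 and Haao at 0.92 were lowest. In siHnf4a, Tdo2 came first at 43.7 ± 18.3 TPM, followed by Nmnat1 at 20.01, Qprt at 16.5, Kynu at 15.5, Afmid at 11.1, Acmsd at 9.87, Nadsyn1 at 7.68, Kmo at 1.15, Ido2 at 0.75 and Haao at 0.31. In that order the ranges of Qprt and Kynu, of Afmid and Acmsd, and of Acmsd and Nadsyn1 overlapped.

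Setting the single and double knockdowns against each other, 0 of the 10 members differed between the double knockdown and siHnf4a in edgeR, where 0.00663% of all tested genes (1 gene) did. DESeq2, limma and the fit with the block each called 0 members there, where they called 0.0265%, 0.00714% and 0.00663% of all genes. Tdo2, Afmid and Kynu had the lowest unadjusted p of the members in edgeR (0.0109, 0.0111 and 0.00417), all lower in the double knockdown. The share of all genes under such an unadjusted p was not counted. Between the double knockdown and siCebpa, 3 members were called, Tdo2 higher and Ido2 and Kmo lower, where 13% of all tested genes were (6.51% higher and 6.47% lower). The block added Kynu, with 27.3% of all genes called. For siHnf4a against siCebpa directly, Tdo2 and Afmid were higher and Kmo and Nadsyn1 lower, 4 of 10, where 16.2% of all genes were called (7.51% higher and 8.67% lower). Here the block added Ido2 (-1.43 ± 0.37, adjusted p = 0.015), with 31.2% of all genes called. Tdo2 differed by 2.52 ± 0.35 and Kmo by -2.34 ± 0.26 on the log2 scale, with edgeR adjusted p of 0.00105 and 0.000378. For the departure from additivity, edgeR called 0 of 10 members, where 0.0861% of all tested genes were called. DESeq2, limma and the block each called 0 members, where they called 1.56%, 0.0928% and 3.82% of all genes. The unadjusted 95% intervals under the block lay above 0 for Qprt (given above) and Kmo (0.58, 0.006 to 1.163; edgeR adjusted p = 0.250). The Cebpa level was higher in the double knockdown than in siCebpa, and the Hnf4a level lower than in siHnf4a, as given at the start. Contrasts of the double with the single knockdowns thus compared unequal depths of knockdown. A count of 0 therefore does not show that loss of Cebpa adds nothing.

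Genes around the pathway were taken from lists by role. Of 12 genes for tryptophan uptake and side branches, 8 were tested. In siHnf4a, Slc16a10, an aromatic amino acid transporter, rose by a log2 fold change of 1.56 ± 0.20 (edgeR adjusted p = 0.000716), and Kyat3, a kynurenine aminotransferase, by 0.56. Aadat, which transaminates kynurenine to kynurenic acid, fell by 3.77 on the log2 scale (SE 0.53, edgeR adjusted p = 0.00118). With both siRNAs the same 3 genes were called in the same directions (Slc16a10 1.33, Kyat3 0.49, Aadat -3.57), and in siCebpa Kyat3 alone (0.50). The block added Il4i1 as higher in siHnf4a (0.68, adjusted p = 0.0445) and Slc3a2 as higher in the double knockdown (0.45, adjusted p = 0.0105). In the glutarate branch after Acmsd, 1 of 4 genes passed: Aldh8a1, the semialdehyde dehydrogenase. Its value was -1.54 ± 0.44 in siHnf4a and -2.09 ± 0.45 in the double knockdown (edgeR adjusted p = 0.0388 and 0.0117). None passed in siCebpa (Aldh8a1 with the block). Beside both lists, 14.5% of all tested genes were called for siHnf4a, 14% for the double knockdown and 4.67% for siCebpa. With the block, the shares of all genes were 30%, 29.5% and 16.8%.

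**Figure D4:**
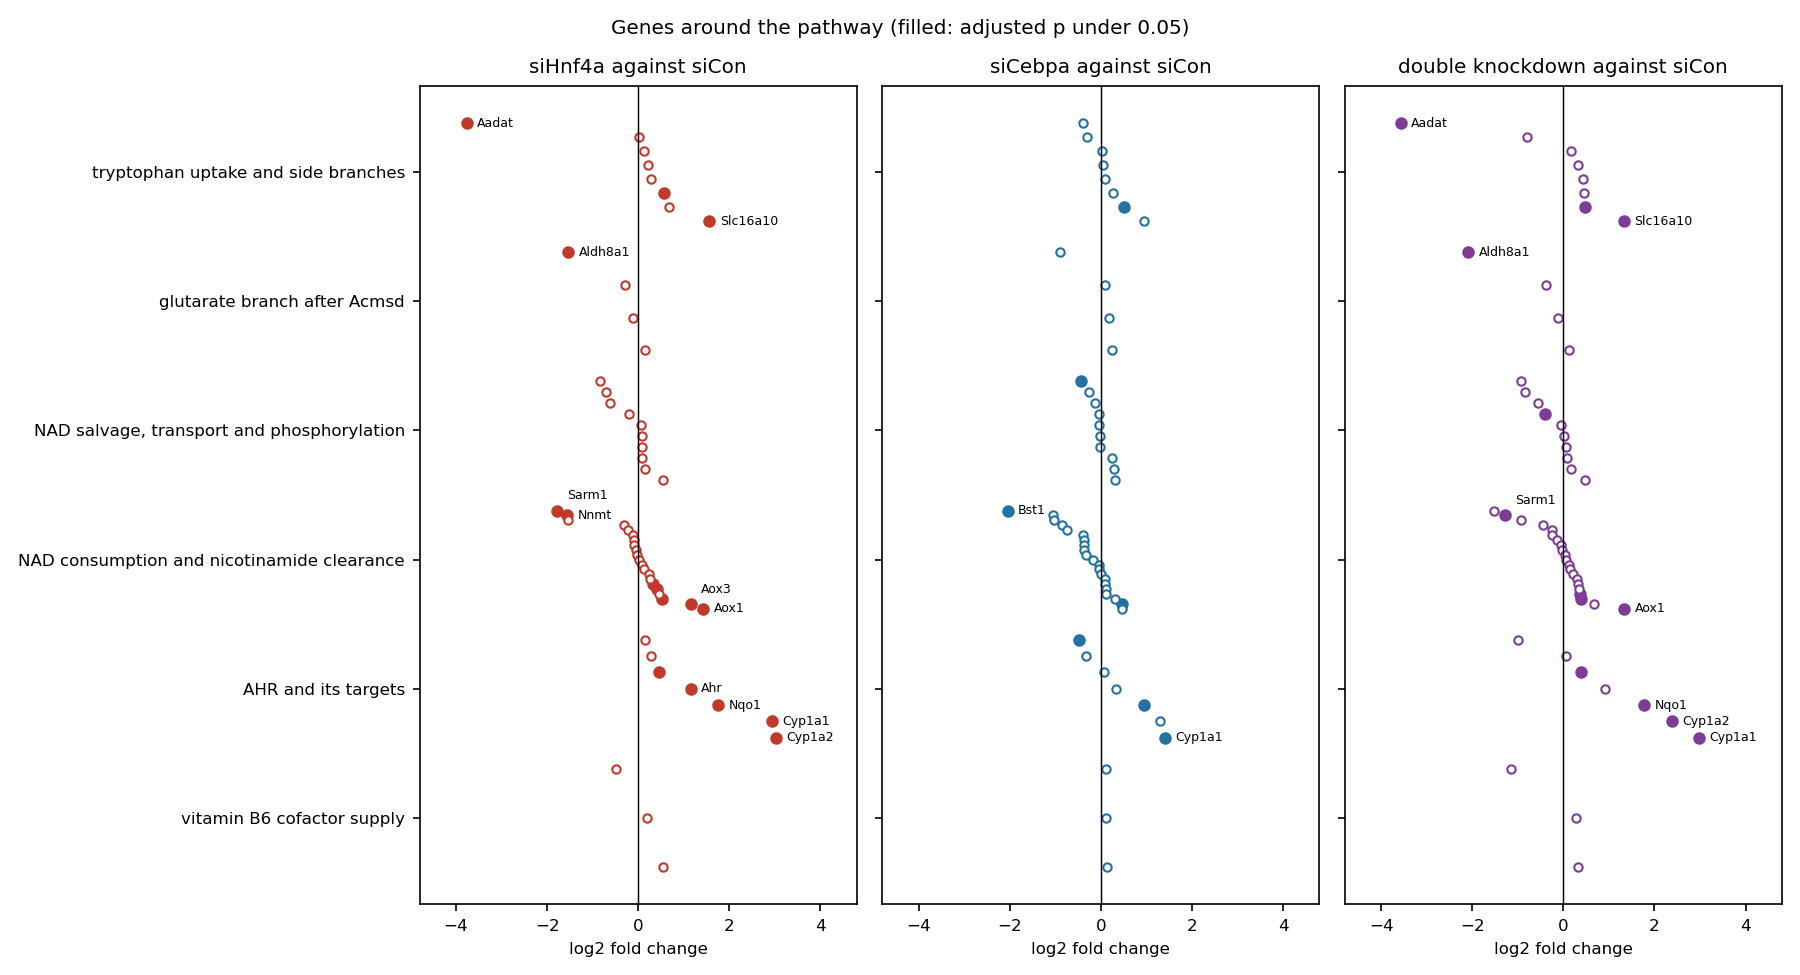
Log2 fold change against siCon of every tested gene of 6 lists around the pathway (rows), for siHnf4a, siCebpa and the double knockdown (panels); filled points passed an adjusted p of 0.05, and called genes with a change over 1 are named. Aadat and Aldh8a1 lie far left and the AHR targets Cyp1a1 and Cyp1a2 far right with Hnf4a siRNA, while most NAD salvage genes lie near 0.

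Of 12 genes for NAD salvage, transport and phosphorylation, 10 were tested. None was called in siHnf4a, where Nadk, the cytosolic NAD kinase, was the most abundant. With the block, 1 was higher and 2 lower in siHnf4a, beside 30% of all tested genes called. Naprt, which starts NAD synthesis from nicotinic acid, was called lower in siCebpa (-0.43 ± 0.09, edgeR adjusted p = 0.0325) and in the double knockdown (-0.41, 0.015). It was the only 1 of the 10 called in either, where 4.67% and 14% of all tested genes were. With the block, 1 gene was higher and 3 lower in the double knockdown, beside 29.5% of all genes. Among 21 genes of NAD consumption and nicotinamide clearance, siHnf4a gave 5 higher and 2 lower, where 14.5% of all tested genes were called. The largest were Sarm1 (-1.79), the nicotinamide methyltransferase Nnmt (-1.56 ± 0.35, edgeR adjusted p = 0.0143), and the aldehyde oxidases Aox1 (1.42 ± 0.08, 1.53e-05) and Aox3 (1.16). In siCebpa, Aox1 rose (0.46) and Bst1 fell (-2.05), and the double knockdown gave 3 higher and 1 lower, led by Aox1 (1.33) and Sarm1 (-1.29). The shares of all tested genes called were 4.67% and 14%. With the block, siCebpa gave 3 higher and 7 lower of the 21, and the double knockdown 6 higher and 4 lower. The shares of all genes with the block were 16.8% and 29.5%.

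Kynurenine and kynurenic acid are ligands of the aryl hydrocarbon receptor, AHR. Of 9 genes for AHR and its targets, 7 were tested, and Ahrr and Cyp1b1 were under the filter. In siHnf4a 5 rose, Cyp1a2 (3.02), Cyp1a1 (2.94), Nqo1 (1.76), Ahr (1.15) and Arnt, where 14.5% of all tested genes were called. In siCebpa, Cyp1a1 (1.40) and Nqo1 (0.96) rose and Arnt fell (-0.48), where 4.67% of all tested genes were called. With both siRNAs Cyp1a1 (2.98), Cyp1a2 (2.39), Nqo1 (1.78) and Arnt (0.38) rose, where 14% of all tested genes were called. The block added Ahr as higher in the double knockdown (0.90, adjusted p = 0.000501 in edgeR), with 29.5% of all genes called. The glucocorticoid receptor gene Nr3c1 was not called in any of the 3 comparisons with siCon, at log2 values of -0.03, -0.12 and -0.17 for siHnf4a, siCebpa and both siRNAs.

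Likeness of pattern is given as a description. Among 9047 genes with a mean of at least 10 CPM, the highest Pearson correlation of log2 CPM with Tdo2 over the 12 libraries was that of Hadhb (0.987), then Rabgap1l (0.973) and Acox2 (0.971). Kmo was most like Tkfc (0.987), Nedd4 (0.985) and Sec16b (0.984), Ido2 most like Slco2a1 (0.975), and Nadsyn1 most like Vgll4 (0.984). Qprt was most like Nectin2 (0.960), Afmid like Atp7b (0.940) and Kynu like Plpp3 (0.933). Among the members themselves, Kmo and Nadsyn1 (0.885) and Ido2 and Kmo (0.878) were the most alike, while Qprt and Nmnat1 (-0.849) and Tdo2 and Kmo (-0.816) ran most opposite of the 45 pairs. The 12 points share 3 mice and 4 siRNA groups.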

How the data were processed

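RNA sequencing had been run on 12 libraries of primary mouse hepatocytes, 4 siRNA groups by 3 mice. The submitters' processing notes name kallisto 0.4.6, Trim Galore 0.6.4 and the build GRCm38.p6. No source used here gives the strand setting. The authors deposited, per library, estimated counts per gene (which need not be whole) and TPM, which sums to a fixed total and is corrected for transcript length. Gene symbols and positions came from GENCODE M21, by Ensembl identifier: 54487 of 55385 identifiers matched with their version and 55144 without it. Promoter sequences came from RefSeq.

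Estimated counts were rounded to whole numbers and tested in edgeR 4.0.16 (R 4.3.3) by the quasi-likelihood test, two-sided, with TMM normalisation, its filter on low counts (15090 genes kept, 40295 left out) and 1 mean per group over all 12 libraries (8 residual degrees of freedom). Benjamini-Hochberg adjustment ran across all tested genes, and a call needed an adjusted p under 0.05. CPM are counts scaled to the TMM-normalised library size. Each SE of an edgeR fold change is its absolute log2 value divided by the square root of the test's F statistic. The 95% intervals use this SE with a t quantile.

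Alternative settings were RLE size factors, DESeq2 1.42.0, no filter, a minimum of 1 CPM in 3 libraries, mouse as a block, only the compared groups, limma 3.58.1 on log2(TPM + 1), and leaving out each library. Leaving out a whole mouse, or a library under the block, was added after seeing the data. Each library's mouse number comes from its label, and the series' design text says that cells came from 3 mice. Deviations from the group means correlated between 0.16 and 0.68 for the 18 same-mouse pairs and between -0.62 and 0.20 for other pairs, so the numbers pair the libraries.

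All 10 members were named in every comparison. From each list of other genes, up to 4 called genes with the largest change against siCon were named, or the most abundant gene where none passed, and up to 3 genes most like each called member. Some genes of these lists are not reported here. The members and lists were chosen with earlier results of these data known. Where 1 symbol had several identifiers (Nnt), the first was used. The 95% intervals and the floor of 3 counts cover the spread between libraries and counting error respectively.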

Additional observations from a re-analysis of the deposited data

How the results depend on the processing

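No called member changed direction under any alternative run. Of 70 values (10 members in 7 comparisons), 16 took the opposite sign in at least 1 setting, and 0 of those 16 were called. Acmsd changed sign most often. The share of all genes called moved with the settings too, and is given in percent beside each count of members. In siHnf4a against siCon the count was 4 (14.5%), and 5 with DESeq2 (18.4%), 6 with the replicate block (mouse) (30.0%) and 3 with only the compared groups (13.3%). It ran from 2 to 5 when 1 library was left out (7.28% to 15.9%), and was 5, 0 and 2 without mouse 1, mouse 2 and mouse 3 (17.3%, 0.493% and 4.31%). In siCebpa the count was 1 (4.67%), and 2 with DESeq2 (8.79%), 0 without a filter (1.22%), 3 with the block (16.8%) and 0 with only the compared groups (0.313%). It ran from 0 to 1 without 1 library (0.74% to 5.18%), and was 2, 0 and 0 without each mouse (6.87%, 0% and 0.0726%). In the double knockdown it was 5 (14.0%), and 6 with DESeq2 (18.1%) and 4 with limma (10.9%). With the block 1 member was higher and 5 lower there (29.5%). The count ran from 2 to 5 without 1 library (7.86% to 15.6%), and was 5, 0 and 1 without each mouse (16.9%, 0.816% and 4.61%). For the double knockdown against siCebpa it was 3 (13.0%), and 4 with DESeq2 (17.1%) and 2 with limma (11.9%). With the block 1 member was higher and 3 lower there (27.3%). The count ran from 1 to 4 without 1 library (6.83% to 13.8%), and was 0 without mouse 2 (0.296%). For siHnf4a against siCebpa it was 4 (16.2%), and 5 with DESeq2 (20.3%), 3 with limma (14.8%) and 2 with only the compared groups (9.22%). With the block 2 members were higher and 3 lower there (31.2%). The count ran from 3 to 4 without 1 library (7.34% to 18.7%), and was 4, 0 and 2 without each mouse (18.7%, 0.388% and 4.04%). For the double knockdown against siHnf4a and the departure from additivity it was 0 throughout.

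Without mouse 2, Kmo in siHnf4a kept its value (-2.59) with an adjusted p of 0.0557, and Tdo2 (1.69) had 0.175. The Tdo2 and Kmo calls in siHnf4a and the Kmo and Kynu calls in the double knockdown held in all 19 alternatives set out for each. The block changed the calls given beside the results and no other of the members. With the block and 1 library left out, calls against siCon remained in 12 of 12 settings for Tdo2, Kmo and Qprt in siHnf4a and for Ido2, Kmo, Kynu and Qprt in the double knockdown. In siHnf4a, Ido2 remained in 9 of 12, Kynu in 8 and Nadsyn1 in 10. In siCebpa, Afmid remained in 11, Kynu in 10 and Qprt in 8, and in the double knockdown Tdo2 in 5 and Nadsyn1 in 8. Against siCebpa, Kynu in the double knockdown remained in 11, and in siHnf4a Ido2 in 10 and Nadsyn1 in 6. Depth limits Haao most, at 0 to 24 counts a library.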
